A study of Mus musculus with 15 samples.

Results

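Lysosomal gene expression was examined in mouse liver through 40 genes, taken by symbol from a table of 21878 genes: 39 that encode lysosomal hydrolases, their cofactors and membrane proteins, and Tfeb, a transcription factor that acts on such genes. All 40 symbols were present, each in 1 row. The livers came from 8-week-old male C57BL/6J mice without a stated genetic change, taken 1 day after a single intraperitoneal injection of saline, of cisplatin (10 mg/kg, at 1 mg/mL in 0.9% saline) or of doxorubicin (10 mg/kg, at 2 mg/mL in sterile water). There were 5 libraries in each group, 1 per mouse as labelled, made from RNA captured on poly(T). Cisplatin forms platinum adducts on DNA, and doxorubicin is an anthracycline that traps topoisomerase II on DNA. The series title names hepatic IRE1a and anorexia driven by GDF15 in chemotherapy.

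Lysosomes are acidic organelles in which hydrolases break down proteins, lipids, glycans and glycogen delivered by endocytosis and autophagy. Membrane proteins shield the organelle, move its products out and release its calcium. TFEB moves to the nucleus when mTORC1 activity at the lysosome is low or when lysosomes are damaged, and it binds E-box sequences in the promoters of many lysosomal genes, so that these genes can be raised together. In liver, hepatocytes and the resident macrophages, called Kupffer cells, are both rich in lysosomes.

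Levels are given as the deposited FPKM, which are scaled to gene length and library size. Differences are given as log2 changes of FPKM + 1 from a limma fit, with ± for the standard error, and a gene was called higher or lower at a Benjamini-Hochberg adjusted p under 0.05 over the 10552 genes tested. Sgsh, which encodes N-sulfoglucosamine sulfohydrolase, stayed at 0.530 to 1.19 FPKM in all libraries and was not tested, because a gene needed at least 1 FPKM in at least 5 libraries. In lists of values, libraries follow their replicate numbers, and the unnumbered doxorubicin library, whose column number matches no label, comes last. Reads assigned to genes, recovered from the steps of the values, came to 27.6 to 34.7 M per saline library, 25.3 to 31.0 M per cisplatin library and 37.6 to 50.7 M per doxorubicin library, so depth cannot be told apart from doxorubicin. Each of the 40 genes had at least 69 reads in every library. Saline 2 stood apart, with 73.0% of tested genes outside the range of the other 4 saline libraries. It was the lowest saline library for 23 of the 40 lysosomal genes and the highest for 11. The summed level of 10 hepatocyte markers was 53538 to 71111 FPKM, which fits the tissue label. In bulk liver, fewer cells of a type and less RNA per cell cannot be told apart.

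The lysosomal genes did not move in 1 direction after either drug. After cisplatin, 3 of the 39 tested genes were higher than after saline (Cd63, Asah1 and Hgsnat) and 1 was lower (Gaa). Of all tested genes 11.1% were called in this comparison, 6.08% higher and 5.0% lower. After doxorubicin, 6 were higher (Ctsd, Lgmn, Cd63, Ctsc, Smpd1 and Tpp1) and 8 were lower (Arsa, Npc1, Ctsz, Gm2a, Ppt1, Man2b1, Gaa and Ctsl), beside 31.6% of all tested genes, 14.4% higher and 17.2% lower. Between the drugs, 3 were higher after doxorubicin (Lgmn, Ctsc and Ctsb) and 10 lower (Arsa, Npc1, Asah1, Ppt1, Naglu, Lipa, Gusb, Ctsz, Ctsl and Hgsnat), beside 20.4% of all tested genes, 9.0% higher and 11.4% lower. The 4, 14 and 13 called genes of the 39 made up 10.3%, 35.9% and 33.3%, so that the shares against saline lay near those of all tested genes.

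The median log2 change of the 39 genes was 0.01 after cisplatin and -0.12 after doxorubicin, where it was -0.01 and -0.04 over all tested genes. Between the drugs the median was -0.08, and -0.02 over all tested genes. In the comparison between the drugs, the doxorubicin libraries lay above all cisplatin libraries for 4 genes and below them for 12, while 6.9% and 9.45% of all tested genes did so. Against saline, groups without overlap were seen after cisplatin for 2 genes above and 1 below (5.33% and 4.39% of all tested genes) and after doxorubicin for 2 above and 4 below (10.5% and 11.5%). The drug groups share the saline libraries and the comparison between drugs shares both drug groups, so the 3 comparisons are not independent. Of the 39 tested genes, 20 were called in at least 1 comparison and 19 in none.

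**Figure D1:**
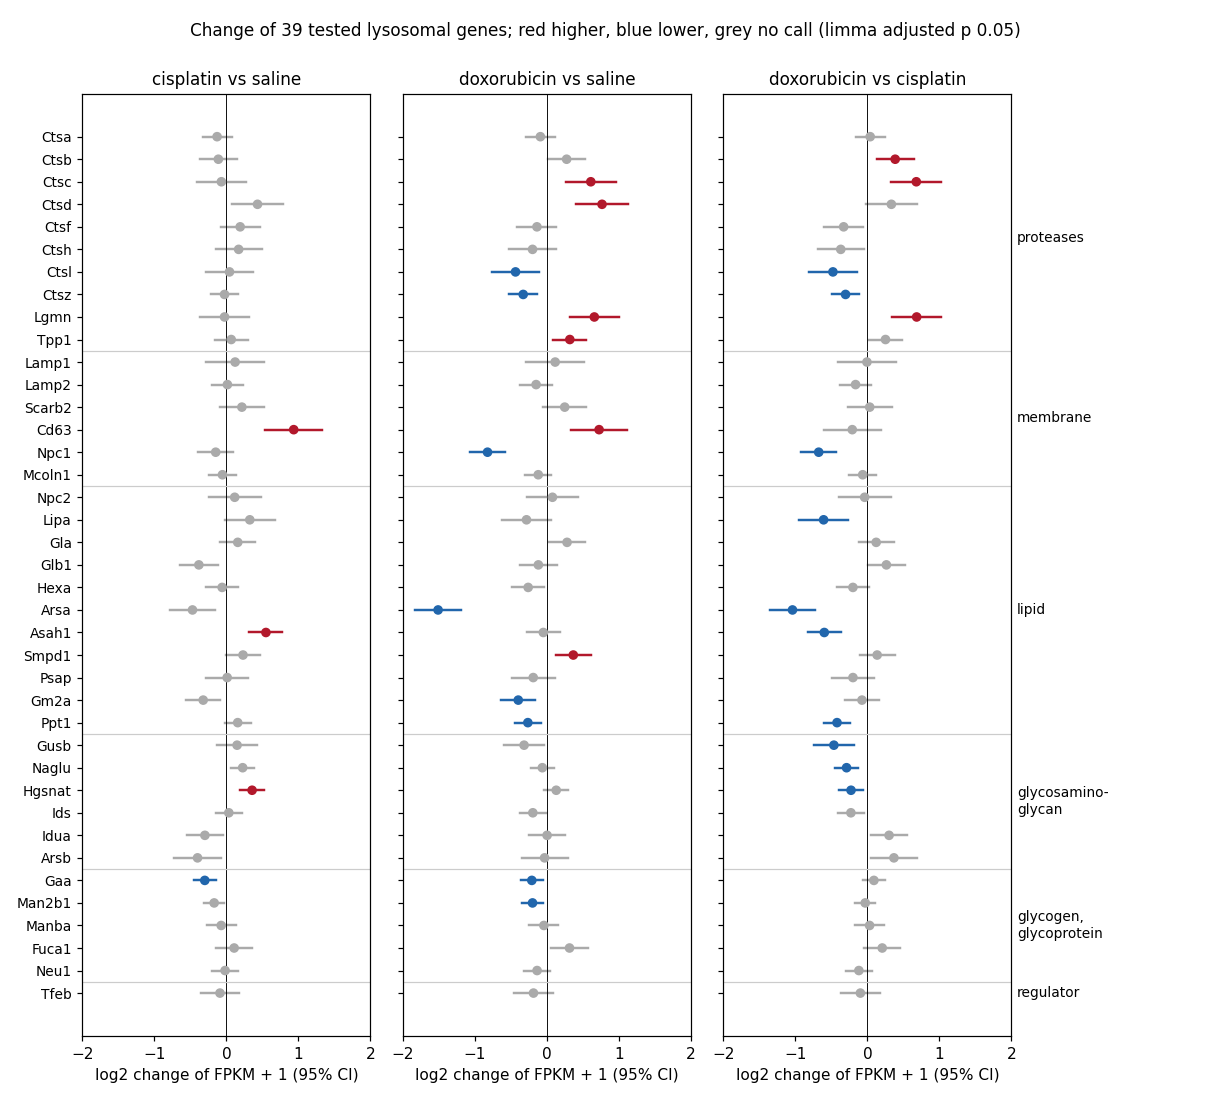
Log2 change of FPKM + 1 (x axis) of the 39 tested lysosomal genes, by role, in the 3 comparisons. Points are limma estimates from 5 libraries a group, bars are 95% confidence intervals, and colour marks an adjusted p under 0.05. Cd63 is called higher after both drugs, and Arsa and Npc1 lie farthest to the left after doxorubicin.

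Counts of lower genes depended on single libraries. After cisplatin, 4 genes were lower without saline 2, when Glb1, Arsb and Gm2a joined Gaa, 3 without saline 4 or without cisplatin 5, and 2 without cisplatin 4. After doxorubicin, the 8 lower genes became 4 without saline 3, without saline 4 or without doxorubicin 4, and 5 without doxorubicin 1. Without saline 2 their number grew, as Ctsh, Gusb and Hexa joined the lower genes after doxorubicin and Gaa left them. Between the drugs, 7 genes in place of 3 were higher after doxorubicin without saline 2, which enters that comparison through the shared estimate of spread. The genes added there were Tpp1, Glb1, Idua and Arsb.

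The levels of the 40 genes spanned a wide range. The saline mean was highest for Ctsl, the gene of the cysteine protease cathepsin L, at 289.9 ± 71.0 FPKM (SD, n = 5, as for all means below). It was followed by Lamp2 and Lamp1, the main glycoproteins of the lysosomal membrane, at 223 ± 22.7 and 206 ± 57.5 FPKM. Ctsz, Ctsb, Ctsh, Ctsd and Psap came next, at 162 ± 13.3, 160.3 ± 33.6, 137 ± 33.7, 126 ± 31.2 and 119 ± 24.1 FPKM. Neighbours in this order overlapped in their saline ranges down to Psap, and a gap separated Psap (92.2 to 156 FPKM) from Ctsa (53.9 to 70.9 FPKM). The lowest saline means were those of Cd63, Ids, Gla and Sgsh, at 3.53 ± 1.09, 1.72 ± 0.172, 1.31 ± 0.310 and 0.845 ± 0.188 FPKM. After doxorubicin, Ctsd had the highest mean but for Lamp1, at 211 ± 37.2 FPKM against 216 ± 33.4, and the ranges of both overlapped with those of Ctsl and Lamp2.

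**Figure D2:**
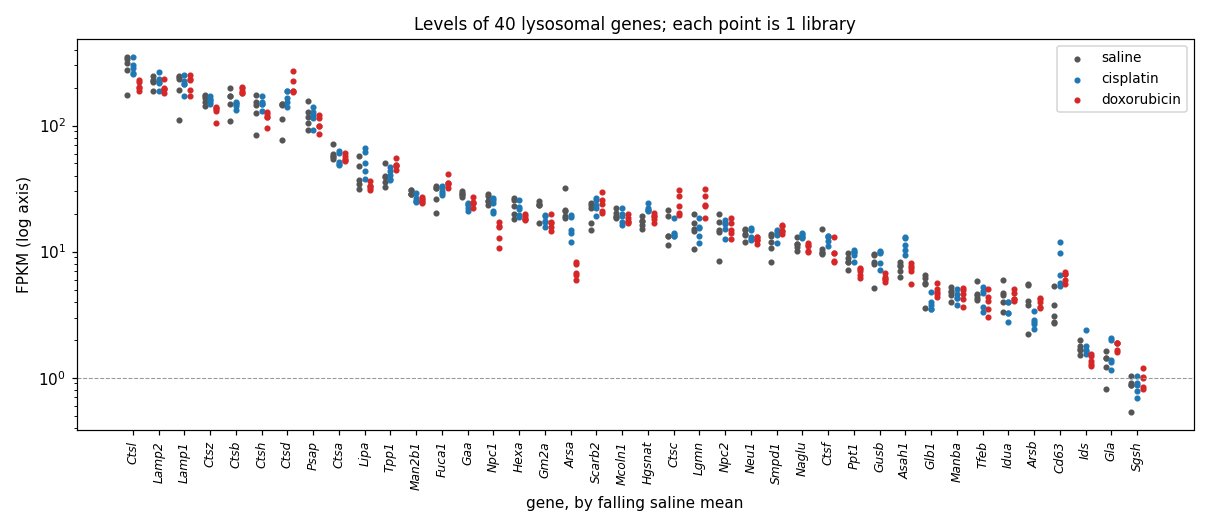
FPKM on a log axis of the 40 lysosomal genes, ordered by their saline mean, with 1 point per library and 1 colour per group. The dashed line marks 1 FPKM. The doxorubicin points of Arsa and Npc1 lie under those of the other groups, and the drug points of Cd63 lie above most saline points.

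The summed level of the 40 genes was 1479.6 to 2246 FPKM in the saline libraries, 1775 to 2125 in the cisplatin libraries and 1683 to 2088 in the doxorubicin libraries. The groups overlapped, and the lowest sum was that of saline 2. By role, the 11 genes of lipid breakdown summed to 278 ± 44.1, 282 ± 34.1 and 230.4 ± 15.2 FPKM in saline, cisplatin and doxorubicin livers. The 7 genes of glycosaminoglycan breakdown summed to 47.8 ± 4.24, 53.5 ± 1.78 and 46.5 ± 1.39 FPKM in the same order. These sums are carried by the most abundant genes and were not tested.

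**Figure D3:**
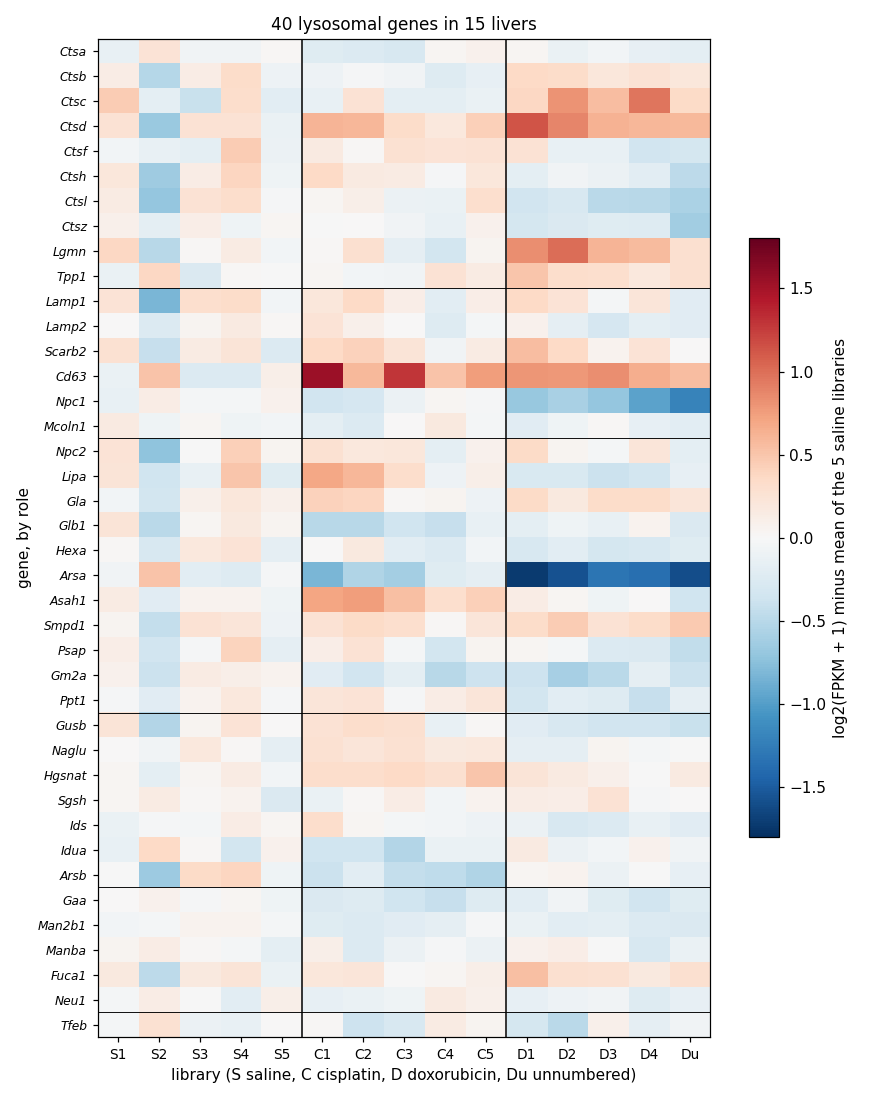
Difference of log2(FPKM + 1) from the mean of the 5 saline libraries for the 40 genes (rows, by role) in the 15 libraries (columns). Red is higher and blue lower. Saline 2 differs from the other saline columns in many rows, Arsa and Npc1 are blue in all doxorubicin columns, and Cd63 is red in all drug columns.

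Tfeb itself (chr17:47737037-47792416, GRCm38) was not called in any comparison. Tfeb was at 4.503, 5.80, 4.25, 4.13 and 4.65 FPKM in the saline libraries, at 4.72, 3.34, 3.61, 5.25 and 4.84 in the cisplatin libraries and at 3.51, 3.03, 5.02, 4.06 and 4.38 in the doxorubicin libraries. The ranges of all groups overlapped, and saline 2 was the highest library of all. The log2 change was -0.09 after cisplatin (95% confidence interval -0.36 to 0.18, limma adjusted p = 0.711) and -0.19 after doxorubicin (-0.45 to 0.08, adjusted p = 0.282).

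Mcoln1 encodes TRPML1, the channel that releases lysosomal calcium, and in human and mouse cells it is a known target of TFEB. Mcoln1 was at 22.1, 18.7, 20.1, 18.5 and 19.0 FPKM in the saline libraries, at 17.3, 16.4, 19.8, 22.2 and 19.2 in the cisplatin libraries and at 16.9, 18.6, 19.9, 17.6 and 17.1 in the doxorubicin libraries. All groups overlapped. Its log2 change was -0.05 after cisplatin (-0.24 to 0.13, limma adjusted p = 0.744) and -0.12 after doxorubicin (-0.30 to 0.06, adjusted p = 0.316). Lamp1 was at 235, 111, 243, 248 and 191 FPKM in the saline libraries, at 228, 253, 215, 173 and 214 in the cisplatin libraries and at 254, 234, 192, 229.5 and 171 in the doxorubicin libraries. Saline 2 was the lowest of all 15 libraries, and the other saline libraries overlapped both drug groups. The log2 change of Lamp1 was 0.12 after cisplatin (adjusted p = 0.738) and 0.12 after doxorubicin (adjusted p = 0.68), and without saline 2 it turned to -0.09 and -0.09, again with no call.

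Promoter windows from RefSeq (GRCm38.p6, 250 bases before to 50 after each start) were found for 35 of the 40 genes, in 40 windows, and were searched on both strands for the E-box CACGTG. This motif reads the same on both strands. It was present in the windows of 13 of the 35 genes (37.1%), while 8.09% of all 27025 genes with a window and 12.0% of the tested genes with a window hold it. The other 5 genes were Ctsb, Ctsh, Npc1, Hgsnat and Asah1. The 13 genes with CACGTG were Ctsa, Ctsd, Ctsf, Ctsl, Lgmn, Lamp1, Gaa, Gla, Glb1, Naglu, Sgsh, Arsa and Mcoln1. For Lgmn the motif lay in a window whose end matched no annotated transcript of the gene, and the window whose end did match held none. Lgmn is among the 2 higher genes with CACGTG counted below. For Ctsl and Ctsa, the 250 bases before the start in the window with the motif lay inside the span of the gene. These starts are thus not the outermost ones. Ctsl is among the 3 lower genes with CACGTG counted below. The longer TCACGTGA, which contains CACGTG, was found for 4 genes (Ctsa, Ctsd, Gla and Mcoln1, 11.4%) and for 1.12% of all genes. Genes with and without the E-box were both called in both directions. Of the 12 tested genes with CACGTG, 2 were higher and 3 lower after doxorubicin, and of the 22 without it, 4 were higher and 4 lower. Of all tested genes 14.4% were higher and 17.2% lower. Counts this small cannot show whether the motif bears on the response. A match is a description of the letters and shows no binding.

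The 250 bases before the start are shown for 4 genes that hold the E-box and differ in their response: Ctsd, which was higher after doxorubicin, Arsa, which was lower, and Lamp1 and Mcoln1, which were not called. Capitals mark CACGTG, and each sequence runs 5′ to 3′ towards the start of its gene.
Ctsd (chr7:142387828-142388077, minus strand): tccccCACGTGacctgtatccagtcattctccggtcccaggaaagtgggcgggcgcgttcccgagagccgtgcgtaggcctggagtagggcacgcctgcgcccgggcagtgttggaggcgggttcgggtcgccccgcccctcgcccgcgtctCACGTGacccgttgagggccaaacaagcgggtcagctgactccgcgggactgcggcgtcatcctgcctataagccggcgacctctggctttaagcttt
Arsa (chr15:89477425-89477674, minus strand): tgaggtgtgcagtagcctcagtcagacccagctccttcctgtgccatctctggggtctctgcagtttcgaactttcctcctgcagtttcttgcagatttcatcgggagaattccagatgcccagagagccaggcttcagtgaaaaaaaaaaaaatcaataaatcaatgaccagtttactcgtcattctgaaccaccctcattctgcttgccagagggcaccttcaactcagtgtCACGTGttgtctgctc
Lamp1 (chr8:13158911-13159160, plus strand): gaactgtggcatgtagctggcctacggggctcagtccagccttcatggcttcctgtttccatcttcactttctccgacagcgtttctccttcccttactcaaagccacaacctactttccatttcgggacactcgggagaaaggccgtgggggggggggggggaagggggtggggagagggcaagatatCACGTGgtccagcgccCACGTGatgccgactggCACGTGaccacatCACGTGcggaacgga
Mcoln1 (chr8:3500269-3500518, plus strand): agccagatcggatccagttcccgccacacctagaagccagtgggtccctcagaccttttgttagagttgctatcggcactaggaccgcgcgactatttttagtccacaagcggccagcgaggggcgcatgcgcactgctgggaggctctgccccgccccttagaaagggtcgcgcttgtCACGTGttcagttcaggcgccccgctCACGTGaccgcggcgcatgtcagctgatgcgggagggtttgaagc
Counted from -1 at the last base before the start, the E-box begins at -245 and -98 in Ctsd, at -16 in Arsa, at -61, -45, -28 and -15 in Lamp1, and at -71 and -45 in Mcoln1. Lamp1 held the most E-boxes of these 4 windows, and Arsa, with 1, had the largest change of the 39 tested genes in the comparison of doxorubicin with saline. The 4 genes were picked to differ in response, so they cannot show whether the number of E-boxes bears on it. That was not tested.

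Among the 10 proteases, none was called after cisplatin, 4 were higher and 2 lower after doxorubicin against saline, and 3 were higher and 2 lower after doxorubicin against cisplatin, beside 11.1%, 31.6% and 20.4% of all tested genes called in these comparisons. Ctsd encodes the aspartic protease cathepsin D (chr7:142375910-142387827). Ctsd was at 146, 76.9, 147, 147 and 112 FPKM in the saline libraries, at 188, 186, 154, 139.6 and 165 in the cisplatin libraries and at 271, 225, 189, 186 and 184 in the doxorubicin libraries. Every doxorubicin library lay above every saline library, and the cisplatin libraries lay between or among them. Ctsd rose by 0.77 ± 0.17 log2 units (limma adjusted p = 0.00243) after doxorubicin, to 1.68 times the saline mean, while the change after cisplatin was 0.43 (adjusted p = 0.114).

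Lgmn encodes legumain, the asparaginyl endopeptidase that processes several cathepsins (chr12:102394082-102439728). Lgmn was at 19.8, 10.4, 15.2, 16.8 and 14.6 FPKM in the saline libraries, at 15.3, 18.6, 13.4, 11.7 and 15.7 in the cisplatin libraries and at 27.6, 31.1, 23.6, 22.9 and 18.5 in the doxorubicin libraries. Of the doxorubicin libraries 4 lay above all others of either group, and the unnumbered one fell within their range. It rose by 0.66 ± 0.16 log2 units (limma adjusted p = 0.00491) against saline and by 0.68 ± 0.16 log2 units (limma adjusted p = 0.00587) against cisplatin.

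Ctsc encodes cathepsin C, the dipeptidyl peptidase that activates the granule serine proteases of immune cells (chr7:88278024-88315861). Ctsc was at 21.3, 13.4, 11.3, 19.2 and 13.3 FPKM in the saline libraries, at 13.8, 18.4, 13.4, 13.4 and 14.0 in the cisplatin libraries and at 20.1, 27.5, 23.0, 30.6 and 19.5 in the doxorubicin libraries. The doxorubicin libraries lay above all cisplatin libraries, while saline 1 reached into their range and saline 4 lay just under it. Ctsc rose by 0.61 ± 0.16 log2 units (limma adjusted p = 0.00918) against saline and by 0.68 ± 0.16 log2 units (limma adjusted p = 0.00703) against cisplatin.

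Tpp1 encodes tripeptidyl peptidase 1, which is lost in a neuronal ceroid lipofuscinosis. Tpp1 was at 36.0, 50.8, 32.3, 39.5 and 38.7 FPKM in the saline libraries, at 40.2, 37.8, 37.3, 46.9 and 43.2 in the cisplatin libraries and at 55.3, 48.9, 48.6, 44.7 and 47.6 in the doxorubicin libraries. All doxorubicin libraries lay above the saline libraries except saline 2, which exceeded 4 of them. It rose by 0.32 ± 0.11 log2 units (limma adjusted p = 0.0329) after doxorubicin, a call that was lost in 9 of 26 alternative settings.

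Ctsb encodes the cysteine protease cathepsin B, and it was called between the drugs alone. Ctsb was at 172, 109.5, 173, 199 and 148 FPKM in the saline libraries, at 147, 155, 151, 133 and 142 in the cisplatin libraries and at 203, 199, 182, 189 and 181 in the doxorubicin libraries. Every doxorubicin library lay above every cisplatin library, and saline 4 lay within the doxorubicin range. The difference between the drugs was 0.39 ± 0.12 log2 units (limma adjusted p = 0.0336), lost in 10 of 26 alternatives, and that against saline was 0.27 (adjusted p = 0.0992; 0.36, adjusted p = 0.0302, without saline 4).

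The lower proteases were cathepsins Z and L, both cysteine proteases. Ctsz was at 172, 144, 176, 154 and 165 FPKM in the saline libraries, at 161, 162, 154, 147 and 171 in the cisplatin libraries and at 129, 135, 139, 138 and 104 in the doxorubicin libraries. No doxorubicin library reached a saline or cisplatin library, and the unnumbered one was the lowest of all. Ctsz fell by 0.33 ± 0.091 log2 units (limma adjusted p = 0.011) against saline and by 0.30 ± 0.091 log2 units (limma adjusted p = 0.0256) against cisplatin, and these calls were lost in 2 and 7 of 26 alternatives, the latter also without the unnumbered doxorubicin library (adjusted p = 0.0513). Ctsl fell from 289.9 ± 71.0 to 208 ± 17.0 FPKM after doxorubicin, by 0.44 ± 0.16 log2 units (limma adjusted p = 0.0422), and stood at 292 ± 36.8 after cisplatin. Saline 2, at 173 FPKM, was the lowest library of all for Ctsl, and the call was lost in 13 of 26 alternatives. Without saline 2 the change was -0.61 (limma adjusted p = 0.000288). All doxorubicin libraries lay below all cisplatin libraries for Ctsl, by 0.48 ± 0.16 log2 units (limma adjusted p = 0.0384), a call lost in 11 of 26 alternatives. The remaining proteases were not called: Ctsa was at 59.6 ± 6.66, 54.5 ± 6.71 and 55.8 ± 3.32 FPKM in saline, cisplatin and doxorubicin livers, Ctsf at 10.998 ± 2.38, 12.5 ± 0.961 and 9.88 ± 1.94 FPKM in saline, cisplatin and doxorubicin livers and Ctsh at 137 ± 33.7, 150.3 ± 14.1 and 116 ± 12.5 FPKM in saline, cisplatin and doxorubicin livers. For Ctsh all doxorubicin libraries lay below all cisplatin libraries (adjusted p = 0.0985). Without saline 2 its change after doxorubicin was -0.36 (adjusted p = 0.0175) against saline, in place of -0.20 (adjusted p = 0.339), and -0.37 (adjusted p = 0.0139) against cisplatin. Ctsf was lower after doxorubicin than after cisplatin without doxorubicin 1 (-0.43, adjusted p = 0.0193) or without saline 4 (-0.33, adjusted p = 0.0343), and with all libraries the difference was -0.33 (adjusted p = 0.0805).

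**Figure D4:**
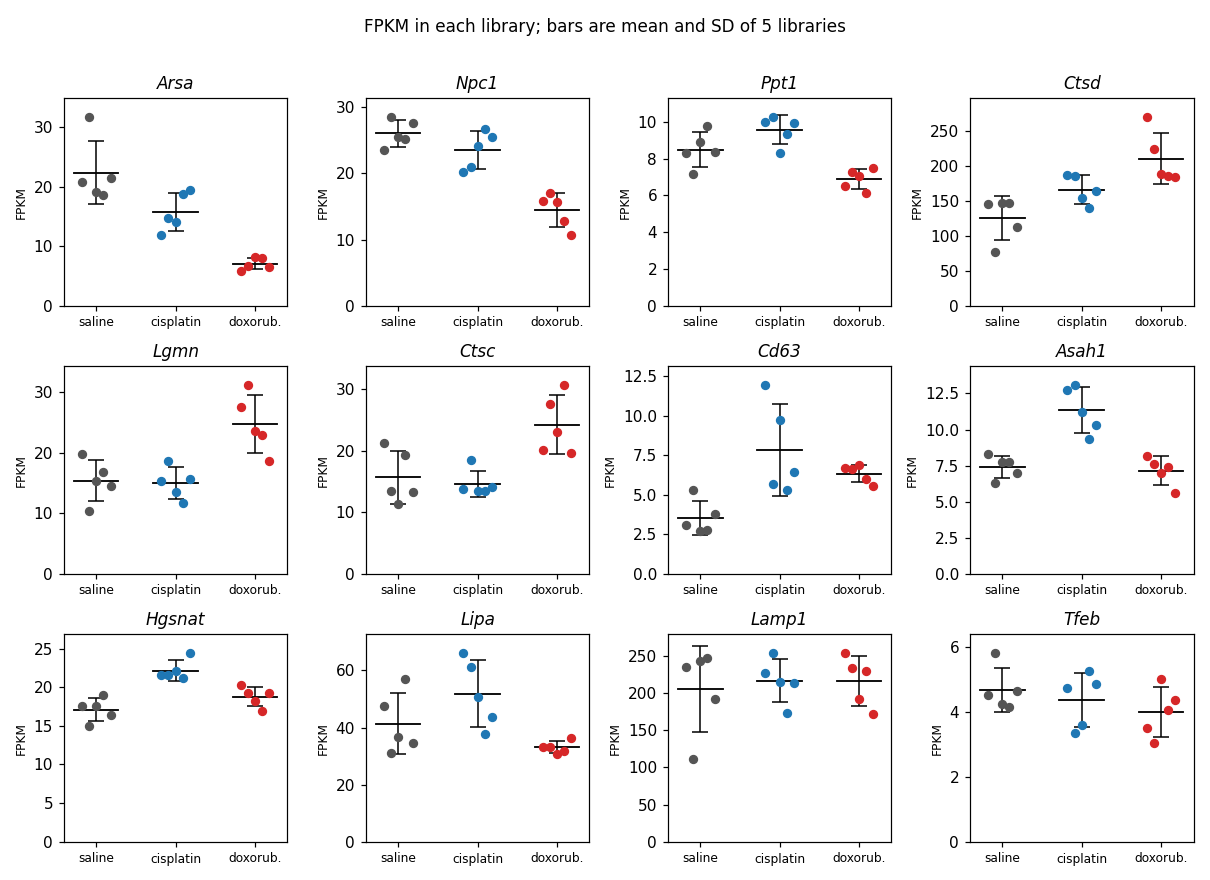
FPKM (y axis, from 0) in each library for 12 lysosomal genes. Bars are the mean and SD of 5 libraries. Arsa and Npc1 are lowest after doxorubicin without overlap, Ctsd is highest after doxorubicin, Asah1 and Hgsnat are highest after cisplatin, and Lamp1 and Tfeb overlap in all groups.

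Markers of immune cells moved with doxorubicin in the same libraries. The marker counts below stand beside 6.08% of all tested genes higher and 5.0% lower after cisplatin. After doxorubicin these shares were 14.4% and 17.2%. Several lists held few tested markers, so their counts are coarse. Of 11 tested Kupffer cell markers 8 were higher after doxorubicin against saline, 0 were called after cisplatin, and the summed level of the 12 listed markers was 79.4 to 137 FPKM in the saline, 90.5 to 124 in the cisplatin and 162 to 268 in the doxorubicin libraries. Marco, a scavenger receptor of Kupffer cells, rose from 2.35 ± 1.15 to 21.5 ± 4.73 FPKM, by 2.80 ± 0.22 on the log2 scale (limma adjusted p = 2.52e-07). Of 10 listed markers of monocytes and infiltrating macrophages 7 passed the filter, and 6 were higher after doxorubicin. The sums were 23.3 to 44.8 FPKM in saline, 30.0 to 39.4 in cisplatin and 45.2 to 80.9 in doxorubicin libraries. Among these 6, Ly6c2 was at 0.390 ± 0.195 FPKM in saline, 0.688 ± 0.358 in cisplatin and 3.70 ± 2.28 in doxorubicin livers. A gene this low elsewhere can pass the filter through the doxorubicin libraries, so the filter favours such a call. Of the 8 neutrophil markers the 3 that passed the filter were higher, and the sums were 4.63 to 8.72, 3.13 to 9.78 and 26.9 to 42.1 FPKM, with Mmp8 and Ly6g at 0 in some libraries of each group. Of 10 sinusoidal endothelial markers, 3 were lower after cisplatin, and 4 were lower and 1 higher after doxorubicin, with sums of 57.6 to 86.3 FPKM in saline, 23.4 to 53.4 in cisplatin and 32.7 to 61.7 in doxorubicin libraries. The tested markers of lymphocytes (4), stellate cells (7) and cholangiocytes (4) held 1 lower, 1 lower and 1 higher after cisplatin, and 3 lower, 0 called and 1 higher after doxorubicin. Of the 10 hepatocyte markers, 2 were lower after cisplatin, and 4 were lower and 1 higher after doxorubicin. Ctss, the cathepsin S gene of antigen presenting cells, rose by 0.75 ± 0.19 (adjusted p = 0.00593) after doxorubicin. The part of these cells in the rises of Ctsd, Lgmn and Ctsc was not tested.

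**Figure D5:**
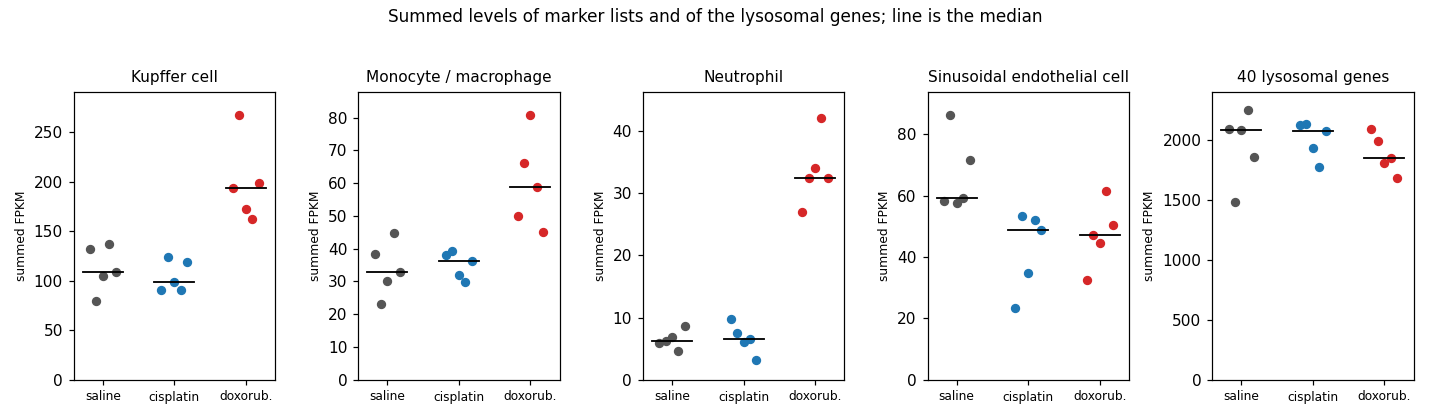
Summed FPKM per library (y axis, from 0) of 4 lists of cell type markers and of the 40 lysosomal genes, with the median of each group as a line. The Kupffer cell, monocyte and neutrophil sums of the doxorubicin libraries lie above those of both other groups, while the sums of the lysosomal genes overlap.

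Of the 6 membrane proteins, Cd63 was higher after both drugs and Npc1 lower after doxorubicin. Cd63 encodes a tetraspanin of late endosomes, lysosomes and exosomes (chr10:128896231-128912822). Cd63 was at 3.07, 5.33, 2.73, 2.74 and 3.76 FPKM in the saline libraries, at 11.9, 5.66, 9.77, 5.32 and 6.47 in the cisplatin libraries and at 6.70, 6.61, 6.90, 5.99 and 5.55 in the doxorubicin libraries. Every doxorubicin library lay above every saline library, and after cisplatin all lay above except cisplatin 4, which was just under saline 2. Cd63 rose by 0.94 ± 0.19 log2 units (limma adjusted p = 0.00371) after cisplatin and by 0.73 ± 0.19 log2 units (limma adjusted p = 0.00716) after doxorubicin, to 2.22 and 1.7999 times the saline mean. The drugs differed by -0.21 (-0.60 to 0.18, adjusted p = 0.479). It was the sole gene of the 39 that was called higher after both drugs. The summed level of the 5 cholangiocyte markers was 25.3 to 39.1 FPKM in the saline libraries, and 83.1, 36.5, 67.4, 39.2 and 55.5 in the cisplatin libraries, where the 2 with the most Cd63 also had the highest sums. In the doxorubicin libraries the sums were 55.9, 40.2, 39.5, 37.0 and 49.8 FPKM, and the library with the most Cd63, doxorubicin 3, was not the one with the highest sum. The part of cholangiocytes in the rise of Cd63 was not tested.

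Npc1 encodes the membrane protein that exports cholesterol from the lysosome, together with the soluble protein encoded by Npc2. Npc1 was at 23.5, 28.5, 25.4, 25.2 and 27.6 FPKM in the saline libraries, at 20.2, 20.9, 24.1, 26.7 and 25.5 in the cisplatin libraries and at 15.8, 17.0, 15.6, 12.8 and 10.8 in the doxorubicin libraries. No doxorubicin library reached a library of another group. Npc1 fell by 0.82 ± 0.12 log2 units (limma adjusted p = 5.22e-05) against saline, to 0.553 times its mean, and by 0.68 ± 0.12 log2 units (limma adjusted p = 0.000601) against cisplatin. Its partner Npc2 was not called and was at 14.9 ± 4.25, 15.8 ± 1.97 and 15.4 ± 2.33 FPKM in saline, cisplatin and doxorubicin livers. Lamp2 was at 223 ± 22.7, 225 ± 27.6 and 201 ± 20.4 FPKM in saline, cisplatin and doxorubicin livers, and Scarb2, the gene of LIMP-2, which carries glucocerebrosidase to the lysosome, was at 20.3 ± 4.31, 23.5 ± 3.10 and 24.1 ± 3.91 FPKM in saline, cisplatin and doxorubicin livers. Neither was called.

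Arsa had the largest change among the genes of lipid breakdown. It encodes arylsulfatase A, which removes sulfate from sulfatides and is lacking in metachromatic leukodystrophy (chr15:89472476-89477424). Arsa was at 20.9, 31.7, 19.1, 18.6 and 21.5 FPKM in the saline libraries, at 11.9, 14.8, 14.0, 18.8 and 19.4 in the cisplatin libraries and at 5.92, 6.73, 8.26, 7.97 and 6.57 in the doxorubicin libraries. Every doxorubicin library lay below every cisplatin and saline library, and saline 2 was the highest of all. Arsa fell by 1.51 ± 0.15 log2 units (limma adjusted p = 1.89e-06) after doxorubicin, to 0.317 times the saline mean, and by 1.04 ± 0.15 log2 units (limma adjusted p = 0.000151) against cisplatin. Without saline 2 the fall against saline was -1.38 on the log2 scale (adjusted p = 1.14e-06). After cisplatin the change was -0.47 (adjusted p = 0.0527), which several alternatives moved past the threshold.

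Asah1 and Lipa had their highest means after cisplatin. Asah1 encodes acid ceramidase, which cleaves ceramide (chr8:41340646-41397644). Asah1 was at 8.29, 6.30, 7.73, 7.78 and 6.96 FPKM in the saline libraries, at 12.7, 13.1, 11.2, 9.34 and 10.3 in the cisplatin libraries and at 8.15, 7.63, 6.98, 7.42 and 5.56 in the doxorubicin libraries. Every cisplatin library lay above every saline and doxorubicin library, and those overlapped each other. Asah1 rose by 0.55 ± 0.11 log2 units (limma adjusted p = 0.00345) after cisplatin, to 1.53 times the saline mean, and was lower after doxorubicin than after cisplatin by 0.60 ± 0.11 log2 units (limma adjusted p = 0.000928).

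Lipa encodes lysosomal acid lipase, which frees cholesterol and fatty acids from lipoprotein lipids. Lipa was at 47.4, 31.1, 36.7, 57.2 and 34.4 FPKM in the saline libraries, at 66.0, 61.3, 50.7, 37.6 and 43.7 in the cisplatin libraries and at 33.1, 33.3, 30.6, 31.9 and 36.2 in the doxorubicin libraries. The doxorubicin libraries lay below all cisplatin libraries, while the saline libraries spread over both ranges. Lipa was lower after doxorubicin than after cisplatin by 0.61 ± 0.16 log2 units (limma adjusted p = 0.0139), and neither drug was called against saline (log2 change 0.33, adjusted p = 0.228, and -0.28, adjusted p = 0.202).

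Ppt1 encodes palmitoyl-protein thioesterase 1, which strips fatty acids from proteins. Ppt1 was at 8.31, 7.17, 8.88, 9.74 and 8.34 FPKM in the saline libraries, at 9.98, 10.3, 8.30, 9.34 and 9.94 in the cisplatin libraries and at 6.48, 7.29, 7.06, 6.12 and 7.47 in the doxorubicin libraries. The doxorubicin libraries lay below all cisplatin libraries and overlapped the lowest saline library. Ppt1 was lower after doxorubicin by 0.42 ± 0.086 log2 units (limma adjusted p = 0.00234) against cisplatin and by 0.26 ± 0.086 log2 units (limma adjusted p = 0.0275) against saline, and the latter call was lost in 7 of 26 alternatives.

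Gm2a encodes the activator protein that presents ganglioside GM2 to hexosaminidase. Gm2a was at 23.6, 16.8, 24.98, 24.1 and 23.5 FPKM in the saline libraries, at 19.3, 17.3, 19.6, 15.5 and 17.0 in the cisplatin libraries and at 17.1, 14.5, 15.7, 19.996 and 16.9 in the doxorubicin libraries. Saline 2 lay within the drug ranges, and the other saline libraries lay above all libraries of both drugs. Gm2a fell by 0.40 ± 0.11 log2 units (limma adjusted p = 0.0114) after doxorubicin, a call lost under median-ratio scaling (limma adjusted p = 0.0551). After cisplatin the change was -0.32 (adjusted p = 0.072), and without saline 2 it was -0.42 (adjusted p = 0.0066).

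Smpd1 encodes acid sphingomyelinase, which forms ceramide from sphingomyelin. Smpd1 was at 11.9, 8.21, 13.9, 13.4 and 10.7 FPKM in the saline libraries, at 13.8, 14.8, 14.4, 11.6 and 13.5 in the cisplatin libraries and at 14.6, 16.0, 13.8, 14.6 and 16.2 in the doxorubicin libraries. The doxorubicin libraries lay above the saline libraries but for doxorubicin 3, which was just under saline 3. It rose by 0.37 ± 0.11 log2 units (limma adjusted p = 0.0217) after doxorubicin, a call lost in 4 of 26 alternatives. The other genes of this group were not called with all libraries. Psap, the precursor of the saposins that assist sphingolipid hydrolases, was at 119 ± 24.1, 119 ± 17.6 and 104 ± 14.0 FPKM in saline, cisplatin and doxorubicin livers. Hexa, the alpha subunit of hexosaminidase, was at 22.7 ± 3.63, 21.7 ± 2.67 and 18.6 ± 0.797 FPKM in saline, cisplatin and doxorubicin livers, and without saline 2 its change after doxorubicin was -0.33 (adjusted p = 0.0152). Glb1, the beta-galactosidase, was at 5.49 ± 1.16, 3.93 ± 0.532 and 4.91 ± 0.494 FPKM in saline, cisplatin and doxorubicin livers, and without saline 2 its change after cisplatin was -0.51 (adjusted p = 0.00232). Gla, the alpha-galactosidase, was at 1.31 ± 0.310, 1.58 ± 0.420 and 1.79 ± 0.149 FPKM in saline, cisplatin and doxorubicin livers.

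Of the 7 genes of glycosaminoglycan breakdown, 6 were tested, and Hgsnat was the one called after cisplatin. Hgsnat encodes the membrane enzyme that acetylates heparan sulfate ends. Hgsnat was at 17.6, 14.99, 17.5, 19.1 and 16.4 FPKM in the saline libraries, at 21.5, 21.5, 22.1, 21.1 and 24.4 in the cisplatin libraries and at 20.2, 19.2, 18.2, 17.0 and 19.3 in the doxorubicin libraries. Every cisplatin library lay above every other library. It rose by 0.36 ± 0.077 log2 units (limma adjusted p = 0.00686) after cisplatin and was lower after doxorubicin than after cisplatin by 0.23 ± 0.077 log2 units (limma adjusted p = 0.0472), the latter call being lost in 15 of 26 alternatives.

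Naglu encodes alpha-N-acetylglucosaminidase, which acts next in heparan sulfate breakdown. Naglu was at 11.4, 10.8, 13.01, 11.5 and 10.0 FPKM in the saline libraries, at 13.9, 13.4, 13.8, 12.9 and 13.03 in the cisplatin libraries and at 10.0, 10.0, 11.7, 11.03 and 11.3 in the doxorubicin libraries. The doxorubicin libraries lay below all cisplatin libraries, and so did the saline libraries except saline 3, which exceeded cisplatin 4. Naglu was lower after doxorubicin than after cisplatin by 0.29 ± 0.076 log2 units (limma adjusted p = 0.0124). Against saline its change was 0.23 after cisplatin (adjusted p = 0.0671) and -0.06 after doxorubicin (adjusted p = 0.563). Gusb, the beta-glucuronidase, was at 8.12 ± 1.79, 9.001 ± 1.30 and 6.20 ± 0.378 FPKM in saline, cisplatin and doxorubicin livers. Gusb was lower after doxorubicin than after cisplatin by 0.47 ± 0.13 log2 units (limma adjusted p = 0.0186), a call lost in 3 of 26 alternatives.

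With all libraries none of the 6 was called after doxorubicin against saline, while without saline 2 the change of Gusb was -0.45 (adjusted p = 0.00218) in place of -0.32 (adjusted p = 0.0768). Arsb, the sulfatase of dermatan and chondroitin sulfate, was at 4.20 ± 1.37, 2.83 ± 0.353 and 3.93 ± 0.314 FPKM in saline, cisplatin and doxorubicin livers, and without saline 2 its change after cisplatin was -0.56 (adjusted p = 0.00272). Idua, the alpha-iduronidase, was at 4.51 ± 0.994, 3.45 ± 0.542 and 4.46 ± 0.424 FPKM in saline, cisplatin and doxorubicin livers. Ids, the iduronate sulfatase, was at 1.72 ± 0.172, 1.796 ± 0.341 and 1.38 ± 0.127 FPKM in saline, cisplatin and doxorubicin livers. For Arsb and Idua all doxorubicin libraries lay above all cisplatin libraries and for Ids all lay below, without a call (adjusted p = 0.0991, 0.0854 and 0.072). Without saline 2 Arsb and Idua differed between the drugs by 0.37 (adjusted p = 0.0125) and 0.30 (adjusted p = 0.0365). Sgsh, below the filter, was at 0.845 ± 0.188, 0.855 ± 0.126 and 0.972 ± 0.153 FPKM in saline, cisplatin and doxorubicin livers.

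Among the 5 genes of glycogen and glycoprotein breakdown, Gaa was lower after both drugs. Gaa encodes acid alpha-glucosidase, which degrades lysosomal glycogen and is lacking in Pompe disease. Gaa was at 28.5, 30.0, 27.9, 29.1 and 26.9 FPKM in the saline libraries, at 23.6, 24.1, 21.99, 21.1 and 24.0 in the cisplatin libraries and at 24.7, 27.2, 24.3, 22.1 and 24.4 in the doxorubicin libraries. Every cisplatin library lay below every saline library, and after doxorubicin all did except doxorubicin 2. Gaa fell by 0.30 ± 0.071 log2 units (limma adjusted p = 0.0126) after cisplatin and by 0.21 ± 0.071 log2 units (limma adjusted p = 0.034) after doxorubicin. The cisplatin call was lost under median-ratio scaling (adjusted p = 0.0636) and the doxorubicin call in 12 of 26 alternatives.

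Man2b1 encodes the lysosomal alpha-mannosidase. Man2b1 was at 28.6, 28.8, 30.9, 30.9 and 28.8 FPKM in the saline libraries, at 25.3, 24.7, 25.4, 26.4 and 29.2 in the cisplatin libraries and at 27.1, 25.7, 26.1, 24.8 and 24.4 in the doxorubicin libraries. The doxorubicin libraries lay below all saline libraries, by a narrow margin. It fell by 0.20 ± 0.067 log2 units (limma adjusted p = 0.0322), a call lost in 10 of 26 alternatives. Fuca1, the alpha-fucosidase, was at 28.7 ± 5.56, 30.6 ± 2.13 and 35.5 ± 3.49 FPKM in saline, cisplatin and doxorubicin livers. Its change after doxorubicin was 0.31 (adjusted p = 0.0543), and 0.36 to 0.37 without saline 1, 3 or 4, each a call (adjusted p = 0.0318 to 0.0443). Manba, the beta-mannosidase, was at 4.67 ± 0.456, 4.40 ± 0.474 and 4.52 ± 0.609 FPKM in saline, cisplatin and doxorubicin livers, and Neu1, the sialidase, was at 13.8 ± 1.32, 13.7 ± 1.396 and 12.5 ± 0.599 FPKM in saline, cisplatin and doxorubicin livers, both without a call.

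Other genes of the pathway were read from lists outside the 40. Of 16 tested subunits of the vacuolar ATPase, the proton pump that acidifies lysosomes, 2 were higher and 0 lower after cisplatin. That is 12.5%, beside 11.1% of all tested genes called and 6.08% called higher. After doxorubicin 4 were higher and 0 lower, which is 25%, beside 31.6% called and 14.4% called higher. Of the 2 after cisplatin, Atp6v1a (0.32 ± 0.099, limma adjusted p = 0.0462) lost its call in 19 of 26 alternatives. Atp6v1d rose from 20.7 ± 2.34 FPKM to 29.1 ± 2.02 after cisplatin and 32.5 ± 1.96 after doxorubicin, by 0.48 ± 0.085 (limma adjusted p = 0.00178) and 0.63 ± 0.085 (adjusted p = 3.98e-05) on the log2 scale. The median log2 change of the 16 was 0.07 after cisplatin and 0.11 after doxorubicin. Of 13 genes of mannose-6-phosphate tagging and sorting, which send hydrolases to the lysosome, 1 was higher after cisplatin and 2 after doxorubicin, with 0 lower. These made up 7.69% and 15.4%, near the 6.08% and 14.4% of all tested genes called higher. Ap1s1, a clathrin adaptor subunit, was called after both, by 0.26 ± 0.081 (adjusted p = 0.0489) and 0.49 ± 0.081 (adjusted p = 0.000263). The call after cisplatin was lost in 17 of 26 alternatives.

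Of 14 tested genes of the TFEB family and of mTORC1 at the lysosome, 0 were higher and 1 lower after cisplatin, and 2 were higher and 3 lower after doxorubicin. These made up 7.14% and 35.7% of the list, near the 11.1% and 31.6% of all tested genes. Lamtor2 rose by 0.32 ± 0.074 (limma adjusted p = 0.00319) after doxorubicin, from 81.4 ± 2.29 to 102 ± 8.79 FPKM. Tfe3, a paralog of Tfeb, rose by 0.30 ± 0.078 (limma adjusted p = 0.00826) after doxorubicin, from 7.42 ± 0.610 to 9.33 ± 0.382 FPKM. The call of Tfe3 was lost in 1 of 26 alternatives. Flcn, the gene of folliculin, which lets mTORC1 hold TFEB and TFE3 in the cytosol, fell by 0.82 ± 0.19 (adjusted p = 0.00321), from 22.9 ± 7.86 to 12.0 ± 1.44 FPKM. Fnip2 and Fnip1, the genes of its partners, fell by 0.84 ± 0.14 (adjusted p = 0.000195) and 0.56 ± 0.18 (adjusted p = 0.0221). The call of Fnip1 was lost in 3 of 26 alternatives.

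Of 29 autophagy genes, 1 was higher and 5 lower after cisplatin, and 2 were higher and 8 lower after doxorubicin. These made up 20.7% and 34.5% of the list, beside 11.1% and 31.6% of all tested genes. Gabarapl1, which encodes a protein of the autophagosome membrane, fell by 1.08 ± 0.16 (limma adjusted p = 7.75e-05) after doxorubicin, from 248 ± 42.6 to 117 ± 21.4 FPKM. Its relative Gabarap rose by 0.36 ± 0.08 (adjusted p = 0.00792) after cisplatin and 0.37 ± 0.08 (adjusted p = 0.0023) after doxorubicin. Ulk1, the kinase that starts autophagy, fell by 0.74 ± 0.14 (adjusted p = 0.0024) after cisplatin, and Atg7, an enzyme of autophagosome growth, fell by 0.47 ± 0.086 (adjusted p = 0.00214) after cisplatin and 0.55 ± 0.086 (adjusted p = 0.000141) after doxorubicin.

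Lysosomal genes outside the 40 were called in both directions too. Of 22 tested further enzymes and cofactors, 1 was higher and 1 lower after cisplatin, and 3 were higher and 5 lower after doxorubicin, which is 9.09% and 36.4% called beside 11.1% and 31.6% of all tested genes. Acp5, an acid phosphatase, fell from 72.3 ± 5.65 to 48.3 ± 2.60 FPKM after doxorubicin, by 0.57 ± 0.076 (limma adjusted p = 3.55e-05), and Aga, which cleaves the link between sugar and asparagine, rose by 0.45 ± 0.10 (adjusted p = 0.00244). Of 20 further membrane proteins and transporters, 1 was higher and 1 lower after cisplatin, and 3 were higher and 4 lower after doxorubicin, 10% and 35% of the list. Slc36a1, an exporter of small amino acids, rose by 0.58 ± 0.13 (adjusted p = 0.00799) after cisplatin and 0.72 ± 0.13 (adjusted p = 0.00047) after doxorubicin. Slc15a4, a peptide and histidine transporter, fell by 0.43 ± 0.09 (adjusted p = 0.0056) and 0.43 ± 0.09 (adjusted p = 0.00171).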

How the data were processed

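The submitters' processing notes name Trim Galore 0.4.1, HISAT2 2.0.1, featureCounts 1.4.6, edgeR and the build GRCm38 (mm10). The annotation release and strand setting are not given in the sources used here. The deposited table holds FPKM for 21878 genes in 15 columns, with 0 columns unused, and the FPKM were used without rescaling. Their low values were whole multiples of 1 read within 0.0001, which gave library totals (261 genes gave 1 total and 37 the next most frequent). A note on the series says doxorubicin information is lacking, while the sample labels name the drug and were followed. The last doxorubicin column was placed by group alone. The labels give the saline volume only as equal to that of the chemotherapy.

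A gene was tested if 5 or more libraries had 1 FPKM or more (10552 genes), on log2(FPKM + 1), with limma 3.58.1 in R 4.3.3 (1 fit of 3 groups, eBayes with trend and robust, two-sided, Benjamini-Hochberg at 0.05). The fit was also run on simulated data, with genes drawn independently and, for each gene, the same spread in all libraries. Those data held no outlying library and no difference in depth, so they cannot show how the fit handles these. P-values weigh the difference between groups against the spread between libraries. The lysosomal genes, pathway lists and marker lists were chosen with earlier results of these data known. Values per library are given for Tfeb, Mcoln1, Lamp1 and at most 6 called genes per direction and comparison with the smallest adjusted p, and at most 3 genes per direction and comparison are named from other lists. Alternatives were pseudocounts of 0.1 and 0.5, no filter, a mean of at least 5 FPKM, TPM, median-ratio and quantile scaling, a fit of 2 groups, the replicate number as block, eBayes without trend and robust, each library left out, and an adjusted p of 0.01. Leaving out saline 2 and the unnumbered doxorubicin library together was added after seeing the data. Python 3.11.15 with pandas 2.3.3, numpy 2.4.6 and matplotlib 3.10.9 served for promoters and figures.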

Additional observations from a re-analysis of the deposited data

Results flagged for a closer look

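In 6 of the 120 sets of 5 libraries (40 genes in 3 groups), 1 library lay far from the other 4 by Dixon's ratio, and chance alone gives about 1 set in 20. Arsa was at 31.7 FPKM in saline 2, while the other saline libraries held 18.6 to 21.5. Gm2a was at 16.8 FPKM in saline 2, against 23.5 to 24.98. Both fell after doxorubicin, and saline 2 stood on opposite sides of its group for them. Ctsz was at 104.3 FPKM in the unnumbered doxorubicin library, against 129 to 139 in the others. Ctsc was at 18.4 FPKM in cisplatin 2, against 13.4 to 14.0. Ctsf was at 15.2 FPKM in saline 4, against 9.51 to 10.4. Ids was at 2.39 FPKM in cisplatin 1, against 1.55 to 1.78.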

How the results depend on the processing

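The 39 tested genes gave 31 called and 86 uncalled differences over the 3 comparisons. The called ones kept their direction in all 27 alternatives each, and 16 of them lost the call in 1 or more (121 times in all). Of the uncalled ones, 19 gained a call in 1 or more alternatives (47 times in all), 11 of them without saline 2, and 24 changed sign in 1 or more (78 times, none with a call). Without saline 2, 9 changed sign: Lamp1 and Npc2 after both drugs, and Ctsl, Fuca1, Lamp2, Neu1 and Psap after cisplatin. For Lamp1 its log2 change was -0.085 after cisplatin and -0.092 after doxorubicin without saline 2 (ranges -0.085 to 0.20 and -0.092 to 0.20 with single libraries left out), and -0.085 and -0.012 when the unnumbered doxorubicin library was left out as well. The calls of Cd63, Asah1 and Hgsnat after cisplatin, of Ctsd, Lgmn, Ctsc, Cd63, Npc1 and Arsa after doxorubicin, and of Ctsc, Lgmn, Npc1, Lipa, Naglu, Arsa, Asah1 and Ppt1 between the drugs held in every alternative at 0.05. Genes lower after cisplatin numbered 2 with TPM, 2 with quantile scaling, 4 without both doubtful libraries (saline 2, unnumbered doxorubicin), 0 at an adjusted p of 0.01 and 1 to 4 with single libraries left out. Genes lower after doxorubicin numbered 2 with median-ratio scaling, 5 with quantile scaling, 5 with 2 groups, 2 at 0.01 and 4 to 10 with single libraries left out. Between the drugs, higher genes numbered 5 with 2 groups, 8 without both doubtful libraries and 2 to 7 with single libraries left out, and lower genes 6 with median-ratio scaling, 6 with quantile scaling and 4 at 0.01. Of all genes, 482, 2034 and 1160 were called at 0.01 after cisplatin, after doxorubicin and between the drugs, and 720 to 1241 after cisplatin with single libraries left out. The causes of these shifts were not tested. Deviations from the group means correlated at -0.55 to 0.35 between libraries of different groups with the same replicate number. Libraries with different numbers were not compared, so this check cannot settle whether the numbers pair the libraries. The main fit treats them as unpaired. The replicate block, in which the unnumbered library drops out, gave 3 genes lower after doxorubicin, 6 lower between the drugs, and 2168 and 1262 of all genes. Genes near 1 FPKM, such as Gla, Ids and Sgsh, have log2 changes shrunk by the added 1.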
